A study of Fundulus heteroclitus with 4 samples.

Results

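The miRNAs of New Bedford Harbor (NBH) embryos were set against those of Scorton Creek (SC) embryos, both at 12 days post-fertilisation (dpf), in the Atlantic killifish Fundulus heteroclitus. The pair was chosen by the labels for population and developmental stage, and makes up 2 of the 4 libraries of the study. The other 2 libraries were pools of embryos of 1 to 15 dpf, again 1 from each population. All embryos were F1 offspring of adults from the 2 sites in Massachusetts, fertilised in vitro and kept in full-strength sea water at 22 °C. The labels name no chemical exposure in either group, and the sources used here do not give how many parents or embryos stand behind a library. Total RNA with an integrity number above 9.8 went into a small RNA library that was read on a SOLiD instrument. Each value below is the count of reads assigned to a listed mature miRNA, or that count per 1000000 normalised reads (CPM).

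A miRNA is a short RNA that guides an Argonaute protein to messenger RNAs, mostly through its seed, bases 2 to 8, and lowers their translation and stability. Some miRNAs are made mainly in a few tissues, so their levels in whole embryos can also reflect which tissues are present and how mature they are. New Bedford Harbor is known for pollution with polychlorinated biphenyls and for killifish that inherit tolerance to them, and Scorton Creek is commonly used as a reference site. At this late embryonic stage killifish have a beating heart, circulating blood, pigmented eyes and skeletal muscle.

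The 2 libraries of 12 dpf embryos held 2299850 counts for NBH and 2343143 for SC, with 202 entries listed in both tables, 8 in NBH alone and 6 in SC alone. A ratio was formed for the 191 shared entries that reached 10 counts in 2 or more of the 4 libraries. With 1 library in each group no difference has a replicate check, no p-value is given, and the 95% intervals (exact conditional binomial) cover counting error only. A miRNA is called higher or lower in NBH at a ratio of 2-fold or more whose interval excludes equality. Since embryos were taken whole, fewer cells of a type and less RNA per cell cannot be told apart.

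The sequences shown first are examples of called entries and of shared-seed groups, and do not cover every wide ratio (miR-727 and miR-27b are absent). They are the listed mature sequences, in the DNA letters of the deposited tables, with the seed in capitals. Of the entries called higher in NBH by all reads and by identical reads, these 7 are shown as examples that are each known for a tissue or body region and have high counts.
miR-126: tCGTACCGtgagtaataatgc
miR-124: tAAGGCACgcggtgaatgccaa
miR-196a: tAGGTAGTttcatgttgttggg
miR-143: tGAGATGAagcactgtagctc
miR-9: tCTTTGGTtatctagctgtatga
miR-122: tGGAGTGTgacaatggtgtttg
miR-451: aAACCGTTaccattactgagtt
Of the entries called lower in NBH by all reads and by identical reads, these 7 are shown as examples with high counts in SC.
miR-27c: tTCACAGTggttaagttctgc
miR-22a: aAGCTGCCagctgaagaactgt
miR-1388: aTCTCAGGttcgtcagcccatg
let-7g: tGAGGTAGtagtttgtatagtt
let-7a: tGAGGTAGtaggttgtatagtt
miR-132: tAACAGTCtacagccatggtcg
miR-192: aTGACCTAtgaattgacagcc
The miR-19 and miR-181 entries are shown as the most abundant of the groups in which all entries with a common seed were called in 1 direction. Within each group they differ outside the seed.
miR-19a: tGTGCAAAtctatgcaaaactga
miR-19b: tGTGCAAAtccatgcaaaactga
miR-19c: tGTGCAAAtccatgcaaaactcg
miR-19d: tGTGCAAAcccatgcaaaactga
miR-181a: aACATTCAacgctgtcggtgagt
miR-181b: aACATTCAttgctgtcggtggg
miR-181c: cACATTCAttgctgtcggtggg

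Of the 191 entries, 46 (24.1%) were called higher in NBH and 26 (13.6%) lower. The median log2 ratio of all entries was 0.08, and the central range of the ratios, between the 25th and 75th percentiles, ran from -0.71 to 0.89. Among the 164 entries with at least 100 counts in a 12 dpf library, 35 (21.3%) were higher and 25 (15.2%) lower. At a threshold of 4-fold 19 were higher and 7 lower. The entries called higher held 22.3% of the counts in NBH and 9.23% in SC, those called lower 2.11% and 7.12%. The abundant part of the profile was closer: of the 50 most abundant entries, which held 86.6% of the counts in NBH and 86.7% in SC, 6 were called higher and 4 lower. Of the 50 least abundant, 19 were called higher and 5 lower.

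**Figure D1:**
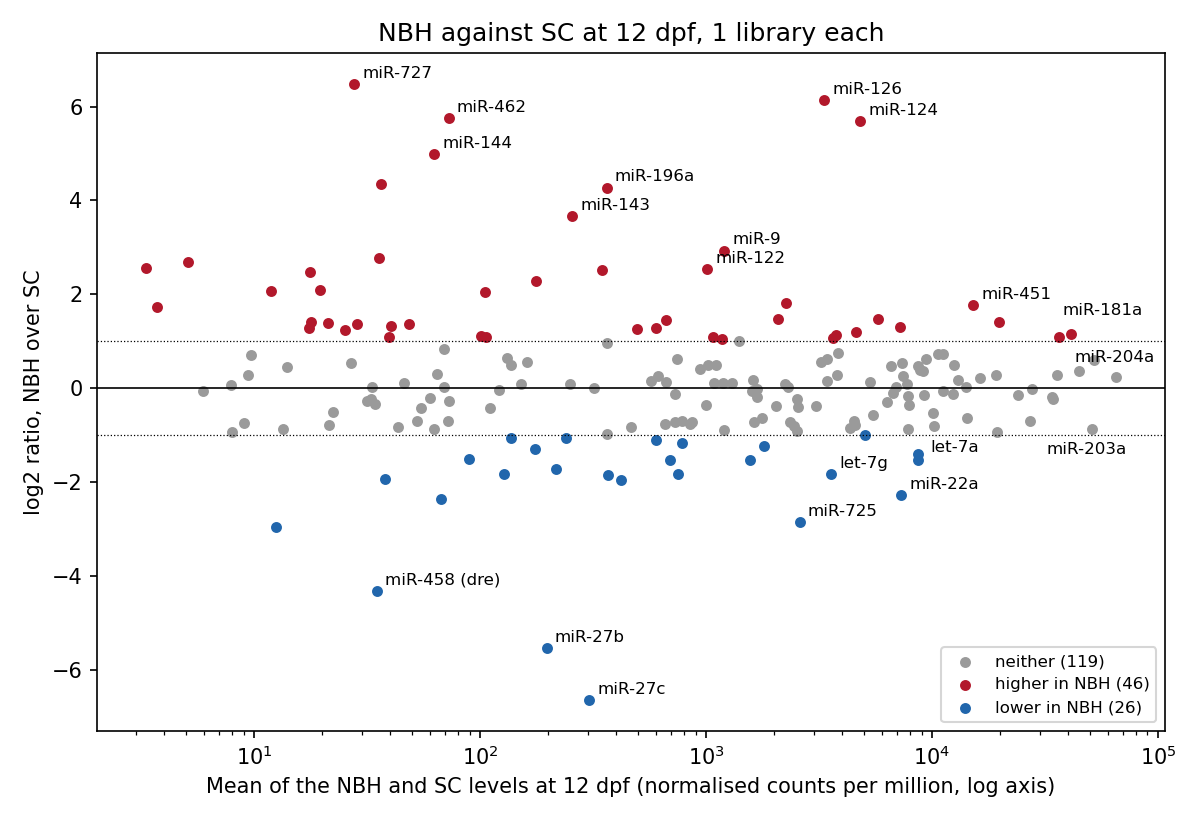
Log2 ratio of NBH to SC at 12 dpf for 191 miRNA entries (vertical axis) against the mean of the 2 levels in normalised counts per 1000000 (horizontal log axis), with 1 point for each entry, coloured by its call. The dotted lines mark 2-fold; the widest ratios belong to entries of low and middle level, and miR-204a, the most abundant entry, lies at 0.24.

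Which of the 2 libraries stood apart was read from all 4 libraries, normalised together. The SC library of 12 dpf was at least 2-fold below each of the other 3 for 24 entries and at least 2-fold above each of them for 17. For NBH at 12 dpf these numbers were 3 and 3, for pooled NBH 13 and 1, and for pooled SC 9 and 16. In identical reads, over 158 entries, SC at 12 dpf stood below the other 3 for 23 entries and above for 13, and NBH at 12 dpf for 7 and 3. In all reads, the 24 and 17 entries of SC at 12 dpf were all among the 46 called higher and the 26 called lower. This follows almost from the definition, since NBH at 12 dpf is 1 of the other 3. The pools differ in stage from both 12 dpf libraries, so stage and library cannot be told apart there. The 6 entries for which NBH at 12 dpf stood out were miR-124, miR-216b and miR-190 above, and let-7h, miR-27b and miR-27c below, where miR-27c was extreme in both libraries. The Spearman rank correlation of SC at 12 dpf with the other libraries, over the 191 entries, was 0.881 to 0.922, and that of NBH at 12 dpf with the pools 0.936 and 0.942, where all points of a pair share its libraries. What made the SC library differ was not tested, and no second SC library of this stage was analysed here.

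**Figure D2:**
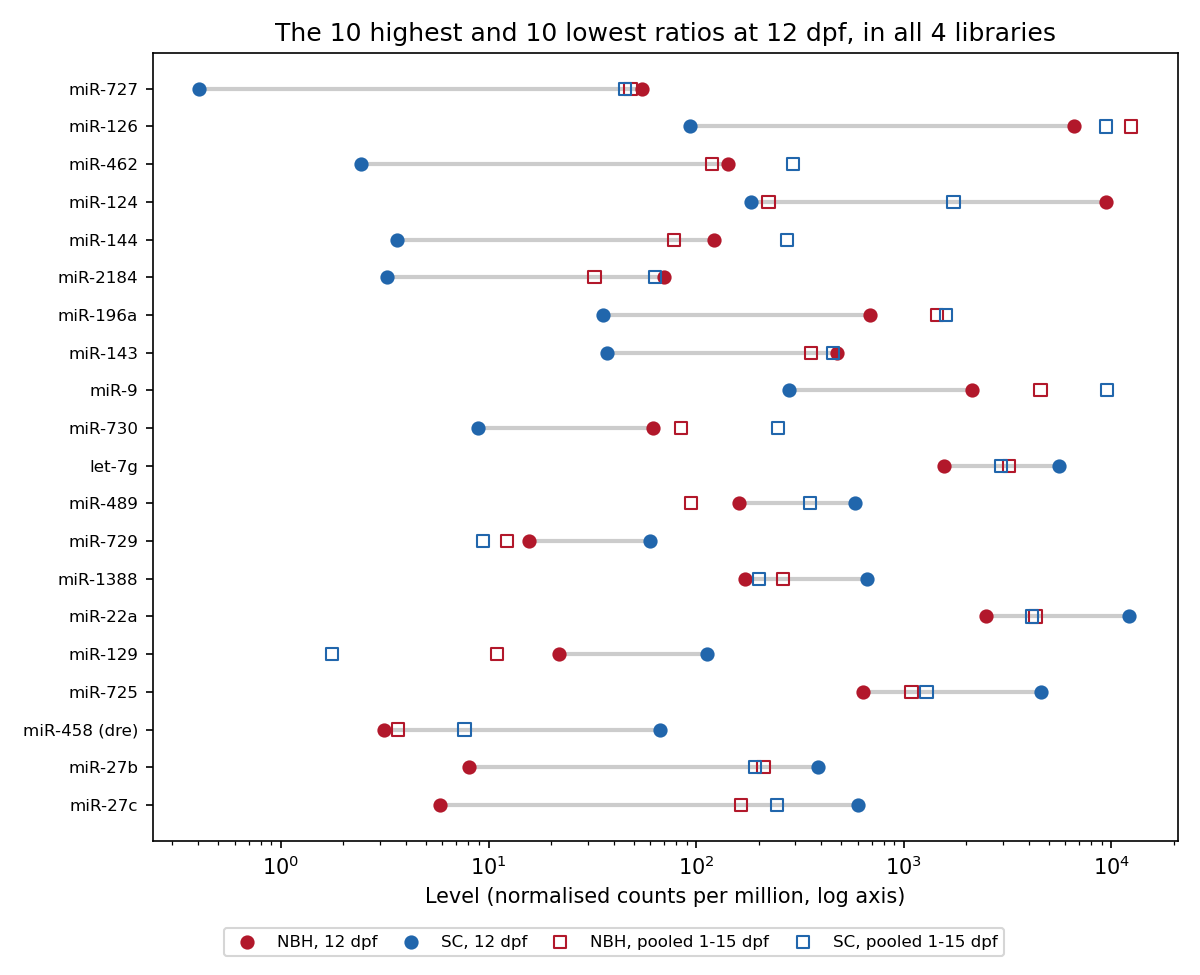
Levels in normalised counts per 1000000 (horizontal log axis) of the 10 highest and 10 lowest ratios of NBH to SC at 12 dpf among entries with at least 100 counts in a 12 dpf library. Filled circles are the 12 dpf libraries joined by a grey line and open squares the pools of 1 to 15 dpf; for miR-126, miR-196a and miR-143 the SC library of 12 dpf lies alone at the left, for miR-27b and miR-27c the NBH library of 12 dpf does.

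Only miR-727, with 123 counts in NBH, had a higher ratio than the endothelial miR-126. miR-126, which supports vessel integrity, had 14735 counts in NBH and 230 in SC at 12 dpf, against 20291 and 16048 in the pools of NBH and SC. The SC library of 12 dpf was low and the other 3 were high. The ratio of NBH to SC was 70.7-fold, on the log2 scale 6.14 (5.96 to 6.34). The 471 and 2 identical reads stood further apart, at 7.83 (6.32 to 11.23). miR-126b, with the same seed, was the less abundant relative at 58 and 24 counts, called higher at 1.40 (0.71 to 2.17). Summed, both entries came to 6614 CPM in NBH and 103 CPM in SC. The red cell miRNAs miR-144 and miR-451, which share a primary transcript in other vertebrates and are switched on in erythroid cells, were both called higher in NBH. For miR-451 there were 52448 counts in NBH and 17002 in SC, with 23450 and 16959 in the pools of NBH and SC, a log2 ratio of 1.77 (1.75 to 1.80), and 2.34 in 27976 and 6793 identical reads. miR-144 was far less abundant, at 272 and 9 counts, and at 11 and 2 identical reads (2.46, interval 0.56 to 5.97). The erythroid pair summed to 23570 CPM in NBH and 6877 CPM in SC. The endothelial and erythroid lists each had 2 of only 2 entries called higher, beside 24.1% of all entries.

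Of 5 measured entries of the leukocyte list 0 were called higher and 1 lower, beside 24.1% and 13.6% of all entries. The entry called lower was miR-146a, a brake on innate immune signalling, at 847 and 2030 counts and -1.12, and at -1.14 in 543 and 1471 identical reads. miR-223, a miRNA of myeloid cells, stood at 0.75 and miR-150, of lymphocytes, at -0.86, although only 6 and 3 of the reads of miR-150 were identical to its sequence. miR-142b (tni) stood at -0.87 in all reads but at 2.64 in 43 and 8 identical reads. With miR-142a, which lacks only its last base, it came to 134 and 267 counts (-0.87), and to 1.67 in 45 and 17 identical reads. By identical reads 1 of 4 leukocyte entries was called higher and 1 lower, with a median of -0.37. Of the 159 entries with at least 10 such reads 23.9% and 15.1% were called so. The list as a whole summed to 8352 CPM in NBH and 9384 CPM in SC. The fish miRNAs miR-462 and miR-731 are encoded together and respond to interferon in other teleosts. Here they parted: miR-462 had 319 counts in NBH and 6 in SC, with 195 and 498 in the pools, while miR-731 had 156 and 170, a ratio of 0.02. In identical reads miR-462 had 26 and 0, which is 10.6-fold higher in NBH if the SC library is given 3 counts. The log2 interval of these reads began at 3.01 and had no upper limit. miR-731 had 0 identical reads in both libraries.

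The neural list was split. Of 17 measured entries 4 were called higher, 4 lower and 9 neither, beside 24.1% and 13.6% of all entries, and the summed level was 65605 CPM in NBH and 63165 CPM in SC. miR-124, the most abundant miRNA of differentiated neurons in vertebrates, had 21133 counts in NBH and 455 in SC, and 365 and 2944 in the pools of NBH and SC. Here NBH at 12 dpf was the high library and the other 3 lay below it. The ratio was 51.3-fold, and identical reads, 4157 and 78, gave a log2 ratio of 6.02 (5.71 to 6.38). miR-9, of neural progenitors and neurons, had 4767 and 692 counts (2.93, interval 2.81 to 3.05), below the 7449 and 16140 of the pools in both libraries. By contrast the neuronal pair miR-132 and miR-212, which share a seed and are induced by neuronal activity in mammals, were both called lower. miR-132 had 737 and 2887 counts (-1.82, interval -1.94 to -1.71) and 304 and 1149 identical reads (-1.62), and miR-212 198 and 459 counts (-1.07). miR-7, of neuroendocrine cells, was lower too, at 1805 and 5784 counts and -1.53, and at -2.19 in 60 and 339 identical reads. Its relative miR-7a, with the same seed, was not called. Summed, the miR-7 and miR-7a counts were 7809 and 14397 (-0.76), short of a call, with -1.45 in 586 and 1974 identical reads. The neural entries of highest level, miR-128, miR-218a and miR-138, stood at -0.94, 0.03 and 0.73 and were not called. miR-129, lower by all reads, and miR-137 (dre) and miR-153c, higher by all reads, had identical reads whose intervals included equality or that numbered under 10.

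The most abundant skin miRNA was higher in SC but did not pass the threshold. miR-203a, which drives epidermal differentiation, had 81385 counts in NBH and 164153 in SC, a log2 ratio of -0.87 and -0.84 in identical reads. It was the most abundant miRNA of the SC library, at 66359 CPM, and stood at 36385 CPM in NBH. The scarcer miR-203b, with the same seed, was not called at 1077 and 612 counts (0.96). By its 848 and 463 identical reads it was called higher in NBH (1.17, interval 1.01 to 1.34). miR-205, of stratified epithelia, stood at -0.81. Of the miR-200 family, which holds epithelial identity, miR-429 was called lower at 2400 and 6273 counts (-1.24, interval -1.31 to -1.17), with 1962 and 5181 identical reads (-1.10). miR-200a lay just past the threshold, 2.001-fold higher in SC, but at -0.89 in identical reads. miR-200b lay on the other side of equality, 1.99-fold higher in NBH and just short of a call, and at 0.09 in identical reads. Together the 9 epithelial entries came to 50686 CPM in NBH and 89915 CPM in SC, with 1 called higher and 2 lower, beside 24.1% and 13.6% of all entries. The entry called higher, miR-429b, had 71 and 18 counts (2.09) but 1 identical read in each library. By identical reads 1 of 8 epithelial entries, miR-203b, was called higher and 1, miR-429, lower. Of the 159 entries with at least 10 such reads 23.9% and 15.1% were called so.

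Of the skeletal and heart muscle miRNAs, the abundant ones were not called. miR-1, the general muscle miRNA, had 46057 and 83258 counts (-0.71) and miR-206, of skeletal muscle, 70720 and 92434 (-0.24), and neither was called. Both were well above their level in the pools, where miR-206 had 11817 counts in NBH and 6711 in SC. Of 6 muscle entries only miR-133c was called, as higher, beside 37.7% of all entries called in either direction. It had 69 and 29 counts, and its identical reads, 26 and 18, had an interval that included equality. miR-133a is made together with miR-1 in vertebrates. Its ratio of all reads was 0.62, with 9311 and 6701 counts, but its identical reads were 1011 in NBH and 53 in SC (4.54, interval 4.15 to 4.98). miR-133b, which differs from it by its last base, had 4323 and 4826 identical reads (0.14). The hypoxia miRNA miR-210 was not called either, at 14547 and 17352 counts and -0.11 (-0.14 to -0.08), although the pools held 289 in NBH and 5992 in SC.

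In the mesenchyme and smooth muscle list 1 of 7 entries was called, beside 37.7% of all entries in either direction. miR-143, of smooth muscle and heart outflow in vertebrates, had 1064 counts in NBH and 92 in SC, with 586 and 771 in the pools. SC at 12 dpf was again the low library. The log2 ratio was 3.67, and 3.97 (3.53 to 4.48) in 529 and 41 identical reads. Its partner on the same transcript in other vertebrates, miR-145, had 19526 and 14930 counts, a ratio of 0.53 that was not called, and -0.22 in identical reads. miR-199, of fibroblasts and cartilage precursors and among the 10 most abundant, stood at 0.36, miR-214 at -0.65 and the cartilage miRNA miR-140 at 0.14. Of these only miR-214, processed from the same transcript as miR-199 in other vertebrates, passed the threshold in identical reads, at 4374 and 15591 (-1.54).

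Entries known for the gut and its glands were called in both directions. Of 3 liver and gut entries 1 was called higher and 2 lower, and of 4 pancreas entries 1 and 1. Of all entries 24.1% and 13.6% were called so. miR-122, the dominant miRNA of hepatocytes, was higher in NBH with 3870 counts against 742, while the pools held 3261 and 3724. Its log2 ratio was 2.53 (2.41 to 2.64), and 2.84 in 2918 and 499 identical reads. The intestinal pair miR-192 and miR-194a, which are encoded together in vertebrates, was lower in NBH, at -1.54 (-1.57 to -1.51) and -1.07 (-1.26 to -0.89). Identical reads gave -1.87, from 3974 and 17883, and -2.09, from 17 and 91. In the pancreas list miR-375, of endocrine cells, was lower, at 226 and 828 counts and -1.73 (-1.95 to -1.51), with 182 and 729 identical reads (-1.70). The acinar miRNA miR-216b was higher, at 381 and 101 counts (2.06, interval 1.74 to 2.39) and 296 and 56 identical reads (2.69), and miR-217, its neighbour in vertebrate genomes, stood at 0.25 without a call. Another acinar entry, miR-216a (entry A), stood at 0.56, and at 2.02 in 110 and 33 identical reads. In the eye and sensory list miR-204a, of pigment epithelium and lens, had 158466 and 148365 counts and a ratio of 0.24. Of the cluster of hair cells and photoreceptors, miR-96 was called at 1.04 (1.33 in identical reads) and miR-182 (dre-5p) at 1.07 (0.56 in identical reads). By contrast miR-183 stood at 0.08 and miR-182 (dre-3p,fru,tni) at -0.01 (-0.10 in identical reads). Of 8 eye and sensory entries 2 were called higher and 0 lower, beside 24.1% and 13.6% of all entries. Scaled by total counts, miR-96 (0.92) and miR-182 (dre-5p) (0.96) fell short of 2-fold. The 2 miR-184 entries, of lens and cornea, stood at 0.18 and 0.12.

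**Figure D3:**
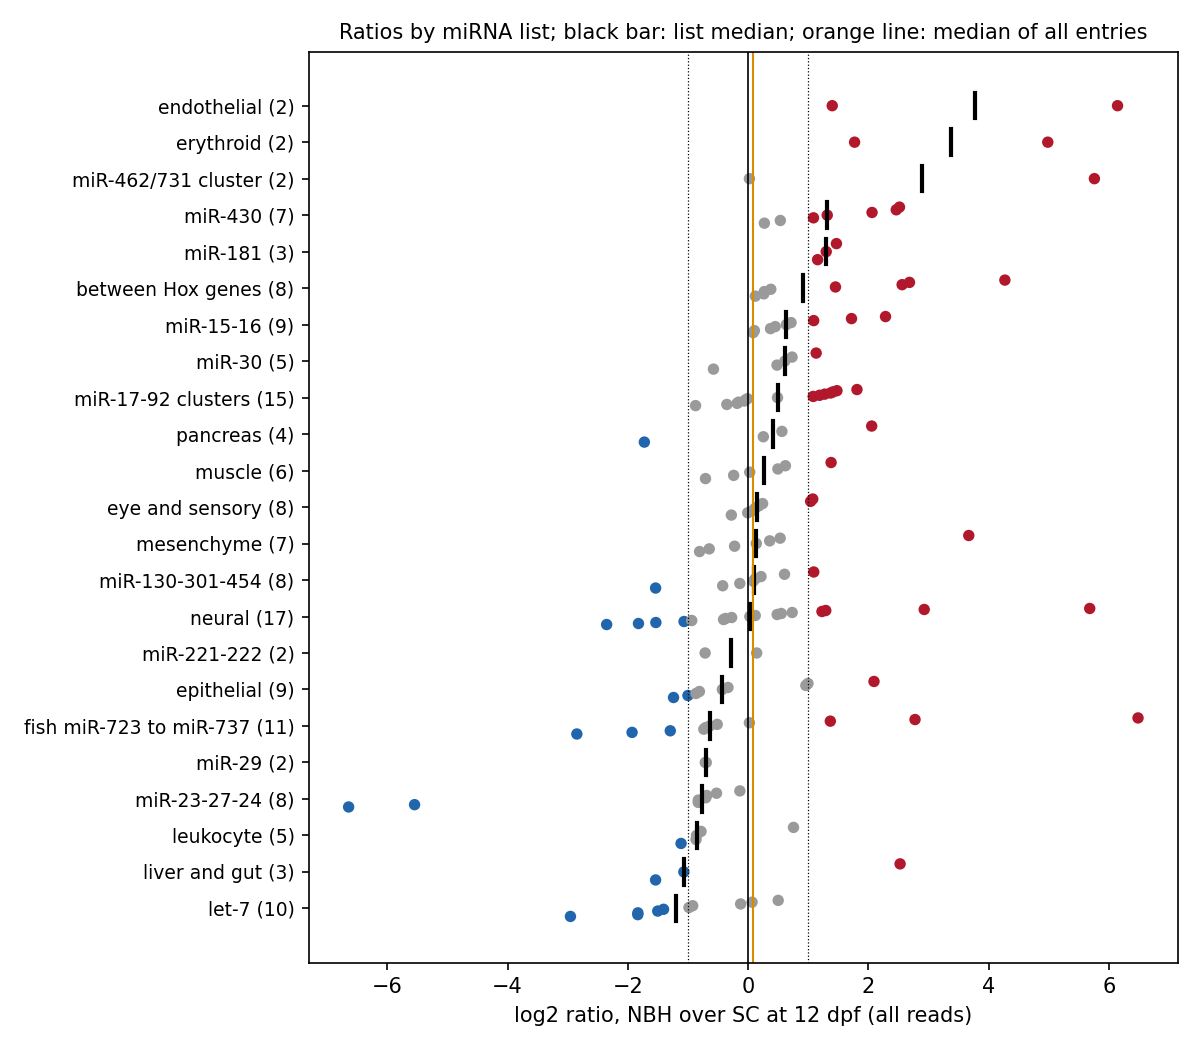
Log2 ratio of NBH to SC at 12 dpf for the entries of 23 lists of 2 or more measured members (number in brackets), red for called higher, blue for called lower and grey for neither, with list medians as black bars and the median of all entries as an orange line. The endothelial and erythroid medians lie at 3.77 and 3.38 and rest on 2 entries each; let-7 lies lowest at -1.20.

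miRNAs encoded between Hox genes, which take part in patterning along the body axis, were called higher for 4 of 8 entries and lower for 0, beside 24.1% and 13.6% of all entries. The 3 measured entries of miR-196, which targets Hox messages of the trunk and fins, were all among them. miR-196a had 1544 counts in NBH and 88 in SC, 2366 and 2715 in the pools, and a log2 ratio of 4.27 (3.97 to 4.61). Its identical reads were 593 and 10, a ratio of 6.11 (5.30 to 7.25). miR-196b and miR-196d were scarce, with 3 and 2 counts in SC. The remaining call was miR-10d (tni,fru), at 2181 and 881 counts (1.45, interval 1.34 to 1.57) and 31 and 1 identical reads. The other miR-10 entries were closer to equality by all reads and not called. The most abundant, miR-10b, had 46890 and 43041 counts, a ratio of 0.27. In identical reads miR-10b stood at 1.96 (1691 and 534) and miR-10d (dre) at 1.99 (6890 and 2133), both past 2-fold. The Hox list had 4 of 6 entries called higher by these reads, beside 23.9% of the 159 entries with at least 10 of them.

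The miR-430 family, which clears maternal messages in early fish embryos and is then shut off, had 5 of 7 entries called higher in NBH and 0 lower, beside 24.1% and 13.6% of all entries, with a median of 1.32. The family came to 2202 CPM in NBH and 854 CPM in SC at 12 dpf, and to 8121 and 8183 CPM in the pools, which include the early days. miR-430a (entry A) had 1322 and 255 counts (2.52, interval 2.32 to 2.72) and 304 and 51 identical reads (2.86), and miR-430d 3270 and 1702 counts (1.09) and 259 and 130 identical reads (1.29). Scaled by total counts, miR-430d stood at 0.97 and was not called. Of the other 5 entries, 4 had 0 identical reads in both libraries and miR-430c (entry B) had 7 and 3. Counts listed as unique to an entry were 0 in both libraries for all but miR-430a (entry B), at 29 and 10. The 5 calls may share reads, but these counts do not show it. They were 0 also for miR-9 and miR-143, each the only listed entry of its seed.

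In the let-7 family, which rises as tissues mature and opposes proliferation, 0 of 10 entries were called higher and 5 lower in NBH. Of all entries 24.1% and 13.6% were called so, and the family median was -1.20. The same 5 were called lower in identical reads, beside 15.1% of the 159 entries with at least 10 such reads. Among them let-7a had 10636 counts in NBH and 31189 in SC (-1.41), and let-7g 3509 and 13845 (-1.83, interval -1.89 to -1.78), with SC at 12 dpf the highest of the 4 libraries for both.

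In the miR-17-92 clusters, tied to proliferation, 7 of 15 entries were called higher and 0 lower, beside 24.1% and 13.6% of all entries. In vertebrates miR-17, miR-18, miR-19, miR-20 and miR-92 are cut from common precursors. All 4 miR-19 entries were called higher, although miR-19b stood at 0.96 and was not called when libraries were scaled by total counts or DESeq2 size factors. miR-19b, the most abundant of them, had 110931 and 57906 counts (1.08, interval 1.07 to 1.10), miR-19a 64379 and 26736 (1.41), miR-19d 18997 and 7547 (1.48) and miR-19c 14357 and 6967 (1.19). Identical reads put them at 1.63, 2.08, 2.15 and 1.56. Of the other abundant members, miR-18a stood at -0.87, miR-17a at -0.16 and miR-20a at 0.49, none of them called, and miR-92a at -0.35. The scarcer relatives miR-18b, at 92 and 39 counts, and miR-20b, at 1902 and 869, were called higher at 1.37 and 1.27. By identical reads 5 entries were higher and 1 lower of 14, beside 23.9% and 15.1% of the 159 entries with at least 10 such reads. The entry that turned was miR-93: its counts were 7839 in NBH and 2472 in SC (1.81, interval 1.74 to 1.88), but its identical reads were 92 and 291 (-1.36, interval -1.72 to -1.02). Identical reads made up 1.17% of miR-93 in NBH and 11.8% in SC.

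When counts were added up over entries with the same seed, 103 seeds remained, of which 20 (19.4%) were called higher and 15 (14.6%) lower. Among the 40 seeds with at least 2 entries, under the main scaling 4 had all entries called higher (those of miR-126, miR-196, miR-19 and miR-181), 1 had all called lower (miR-132 and miR-212), and 2 had entries called in both directions. The miR-181 seed, of a family acting in lymphocytes and the retina, held 157071 counts in NBH and 76231 in SC. Its entry miR-181a had 127171 and 63132 counts (1.16, interval 1.14 to 1.17) and 95551 and 41595 identical reads (interval 1.48 to 1.51). miR-181b and miR-181c had at most 11 identical reads in a library. The seed of miR-27, a miRNA of vessels and fat cells, had 905 and 4142 counts, the lowest ratio (-2.07) of the 40 seeds that several entries share.

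Within the miR-27 seed 2 of 4 entries were called lower, beside 13.6% of all entries. miR-27c had 13 counts in NBH and 1490 in SC at 12 dpf, and 270 and 416 in the pools. The NBH library of 12 dpf was the lowest of the 4 and the SC library the highest. SC exceeded NBH 100.02-fold, and identical reads were 2 and 929 (-8.27, interval -11.61 to -6.71). miR-27b had 18 and 955 counts (-5.55, interval -6.35 to -4.92), with 345 and 327 in the pools. It had only 0 and 9 identical reads, which is 2.44-fold lower in NBH if the NBH library is given 3 counts. miR-27e and miR-27a, at 751 and 1475 and at 123 and 222 counts, stood at -0.83 and -0.70 and were not called. Their cluster partners in vertebrates, miR-23a, miR-23b and miR-24 (entry A), stood at -0.53, -0.14 and -0.69, also without a call. Identical reads of miR-24 (entry A) were 664 and 4982 (-2.61, interval -2.73 to -2.49). Those of miR-24 (entry B) were 2 and 20 (-2.77, interval -6.17 to -0.98). Of the miR-23, miR-24 and miR-27 entries, 6 had at least 10 identical reads, with 0 called higher by them and 4 lower. Of all 159 such entries 23.9% and 15.1% were called so.

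The other families are given beside the 24.1% of all entries called higher and 13.6% called lower. Of 8 entries of miR-130, miR-301 and miR-454, 1 was higher, the scarce miR-130a at 120 and 62 counts (1.09, and 2.92 in 46 and 7 identical reads), and 1 lower, miR-454b at 796 and 2559 (-1.54). By its 6 and 19 identical reads (-1.30) miR-454b was not called. Of 9 entries of miR-15, miR-16 and miR-457, miR-15a (entry A), miR-15c and miR-457a were higher. Of these miR-15c had only 13 and 4 counts (1.72, interval 0.15 to 3.92), with 1 identical read in each library. miR-16b, by far the most abundant of them with 22962 and 19622 counts, stood at 0.37. miR-29, which limits collagen production, was not called for either of its 2 entries (-0.70 and -0.71), nor were miR-221 (-0.72) and miR-222 (0.14). Of 5 miR-30 entries 1 was called higher, miR-30d. By identical reads 0 of 4 were called higher and 1 lower, miR-30e at 922 and 2334 (-1.04), beside 23.9% and 15.1% of such entries. The 10 most abundant miRNAs held 44.5% of the counts in NBH and 41.2% in SC, and only miR-181a and miR-19b among them were called. The levels in NBH and SC were 62676 and 41204 CPM for miR-130c, 39343 and 32567 CPM for miR-103, 31945 and 36407 CPM for miR-125b, and 27640 and 27863 CPM for miR-99.

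Further entries lower in NBH had many identical reads. miR-22a, which is widely expressed and acts in heart muscle, had 5596 counts in NBH and 29965 in SC, and 7048 and 7044 in the pools. SC at 12 dpf was the high library. The log2 ratio was -2.28 (-2.32 to -2.23), and -2.26 in 2447 and 14389 identical reads. miR-1388, a fish miRNA, had 385 and 1652 counts, 430 and 342 in the pools, and a ratio of -1.95 (-2.12 to -1.80), with 236 and 1241 identical reads (-2.10). Among the fish miRNAs numbered from miR-723 to miR-737, 3 of 11 were called higher and 3 lower, beside 24.1% and 13.6% of all entries. Only 4 of the 11 had 10 or more identical reads. Of these 4, miR-730 (106 and 6 identical reads, 4.32) and miR-724 (55 and 10, 2.69) were called higher by identical reads, miR-737 (8 and 25, -1.30) lower and miR-726 (46 and 87, -0.62) neither. miR-725 had 1415 and 11275 counts (-2.85) but 3 and 2 identical reads, and miR-727, which had the highest ratio of all with 123 counts against 1 (6.48, interval 4.58 to 12.40), had 1 and 0. Identical reads were as few for miR-2184, called higher at 156 and 8 counts (4.34), with 5 and 0. miR-489, at 358 and 1435 counts, and miR-729, at 35 and 149, were called lower with 0 identical reads in both libraries.

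Across all calls, identical reads answered for most. Of the 46 entries called higher, 27 were called the same way by identical reads, 4 lay in the same direction under 2-fold, 2 had an interval that included equality, 1 was opposite (miR-93) and 12 had fewer than 10 such reads. Of the 26 called lower, 16 were called the same way, 2 lay in the same direction under 2-fold, 3 had an interval that included equality, 0 were opposite and 5 had fewer than 10. Over the 159 entries with at least 10 identical reads in the pair, 38 (23.9%) were called higher and 24 (15.1%) lower by identical reads. Of these, 11 higher and 7 lower were not called by all reads.

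**Figure D4:**
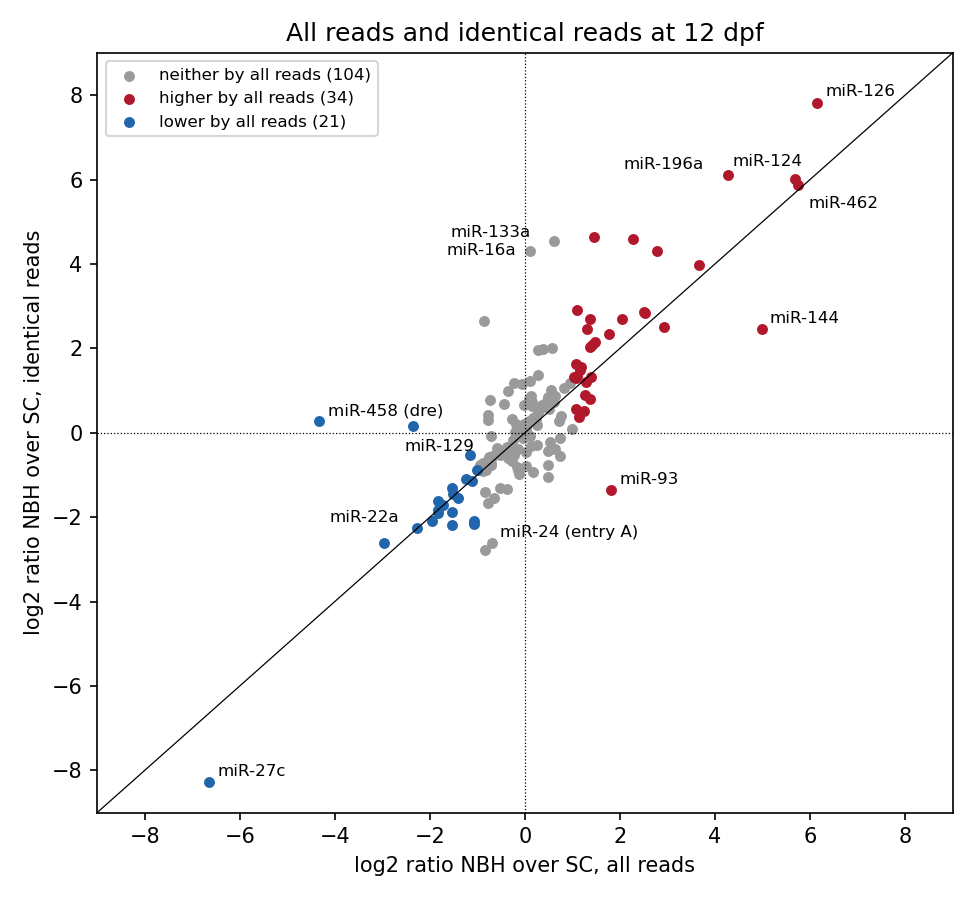
Log2 ratio of NBH to SC at 12 dpf in identical reads (vertical axis) against that in all reads (horizontal axis) for the 159 entries with at least 10 identical reads in the pair, coloured by the call of all reads, with the diagonal of equal ratios. miR-93 is the red point below 0, miR-133a and miR-16a lie far above the diagonal among the grey points, and miR-462, with 0 identical reads in SC, is drawn with a pseudocount of 0.5.

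The pools of 1 to 15 dpf give the same contrast of populations in 2 other libraries, scaled together with these. There 19 (9.95%) of the 191 entries were called higher in NBH and 39 (20.4%) lower. The leading entries of 12 dpf were near equality in the pools for miR-126 (0.39), miR-143 (-0.34), miR-196a (-0.14), miR-122 (-0.14), miR-22a (0.05), let-7g (0.12) and miR-27b (0.13). miR-124 (-2.96), miR-144 (-1.81), miR-462 (-1.30) and miR-9 (-1.06) were lower in NBH there, but identical reads of miR-9 in the pools, 1543 in NBH and 1211 in SC, stood at 0.45 (0.34 to 0.56). miR-19b (1.22), miR-181a (2.45) and miR-30d (1.83) were higher in NBH in the pools too. At 12 dpf miR-30d, of a widely expressed family, had 11592 and 5852 counts (1.13) but 1283 and 1215 identical reads (0.38). The difference between the stages was not tested, since each group is 1 library.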

How the data were processed

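Per the labels' protocols, small RNA libraries were prepared with a SOLiD kit and read on a SOLiD V3 system. The authors deposited raw read counts per mature miRNA for each library, with no normalisation, and beside them counts of identical reads, per the file headers. Counts listed as unique to an entry made up 74.3% of the counts in NBH and 75.2% in SC at 12 dpf. They were 0 at 12 dpf for entries such as miR-143, miR-9 and miR-181a, and were not used for the calls. Names come from zebrafish, pufferfish and medaka, per the file headers. For the aligner, the mismatches it allowed and the miRNA release, the sources used here say nothing. Both tables of 12 dpf were joined by Feature ID, which is the mature sequence. The highest count of an entry listed in only 1 of them was 20, and such entries have no ratio. In pooled SC, miR-27c and miR-92a were listed with other sequences and were joined by name.

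Entries with at least 10 counts in 2 of 4 libraries were kept (192, of which 191 had a ratio). Scaling used the TMM factors of edgeR 4.0.16 in R 4.3.3. Identical reads were scaled by TMM factors of their own. For the log2 ratio, 0.5 was added to each count in proportion to library size, and the interval is Clopper-Pearson. edgeR fits no test here, since 1 library a group leaves no spread. The ratio was tried on simulated counts with counting error alone, which cannot show how far replicate libraries would differ. Alternatives were total counts, DESeq2 1.42.0 size factors, TMM of the 12 dpf pair, scaling without the 5 most abundant entries, a pseudocount of 5, identical reads, sums by seed, other count filters and a 4-fold threshold. Same-named entries carry their species or a letter, by total count. The miRNAs named were taken from the lists, the 10 highest and 10 lowest ratios with at least 100 counts and the 10 most abundant. They were also taken from those with opposite calls in the pools and those that share a seed with any of these. Not every such entry is named. miR-190, outside this rule, was named after its values were seen. The members and lists were chosen with earlier results of these data known. The list of hairpin positions was not used. Ratios were computed in Python 3.11.15 with scipy 1.17.1, pandas 2.3.3 and numpy 2.4.6, and drawn with matplotlib 3.10.9.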

Additional observations from a re-analysis of the deposited data

Results flagged for a closer look

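For 16 entries with at least 100 counts in a library, the ratio of NBH to SC was called in opposite directions at 12 dpf and in the pools. Of all 191 entries, 24.1% were called higher in NBH and 13.6% lower at 12 dpf, and 9.95% higher and 20.4% lower in the pools. Higher at 12 dpf and lower in the pools, with the pooled log2 ratio in brackets, were miR-124 (-2.96), miR-462 (-1.30), miR-144 (-1.81), miR-93 (-4.26), miR-216b (-2.76), miR-730 (-1.55), miR-20b (-2.92), miR-18b (-2.82), miR-9 (-1.06), miR-430c (entry A) (-1.41), miR-457a (-1.71), miR-724 (-1.34). Lower at 12 dpf and higher in the pools were miR-728 (1.14), miR-429 (1.44), miR-454b (1.94), miR-129 (2.45). For miR-9 identical reads in the pools had the opposite sign to all reads (0.45, interval 0.34 to 0.56). The difference was not tested, since each population has 1 library at each stage. In identical reads 10 of the 16 had ratios of opposite sign with both intervals excluding equality, among them miR-124 (6.02 at 12 dpf and -2.18 in the pools), miR-216b (2.69 and -3.29), miR-18b (2.03 and -2.93), miR-457a (1.35 and -1.78) and miR-429 (-1.10 and 1.88). Some pooled ratios rest on few counts. In the pools of NBH and SC miR-216b had 3 and 24 counts, with 1 and 15 identical reads, and miR-129 had 18 and 3 counts.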

How the results depend on the processing

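The number of miRNAs called higher in NBH lay between 37 and 48, and of those called lower between 22 and 31, under total counts, DESeq2 size factors, TMM of the 12 dpf libraries alone, scaling without the 5 most abundant entries, a pseudocount of 5, identical reads, no count filter and a filter of 100 counts. Other counts came from a 4-fold threshold, with 19 higher and 7 lower, and from sums by seed, with 20 higher and 15 lower. With pooled SC in place of SC at 12 dpf, an alternative chosen after seeing the data that also changes the stage, 30 were higher and 40 lower. The median of all ratios moved by -0.12 with total counts, by -0.12 with DESeq2 size factors and by 0.11 with the filter of 100 counts. With total counts or DESeq2 size factors miR-19b, miR-430d, miR-457a, miR-130a, miR-96 and miR-182 (dre-5p) fell short of 2-fold, and miR-128 (-1.06), let-7d (-1.04) and let-7j (dre) passed it. With the filter of 100 counts miR-194a (-0.96), miR-212 (-0.96) and miR-200a (-0.89) fell short. In identical reads 5 called ratios changed sign: miR-93 (-1.36), miR-129 (0.16), miR-181c (-1.49), miR-458 (dre) (0.27) and miR-725 (0.73), of which miR-93 alone had an interval that excluded equality. In sums by seed the sign changed for miR-153c (-0.16), miR-18b (-0.73), miR-190 (-0.10), miR-429b (-0.26) and miR-454b (0.30), whose seeds are held by more abundant relatives. No paired analysis was possible because each group has 1 library. Depth limits entries such as miR-462 and miR-144, with 6 and 9 counts in SC, and leaves 32 entries with fewer than 10 identical reads.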

Other observations

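For 6 of 131 entries with at least 100 counts in both 12 dpf libraries and at least 10 identical reads in 1 of them, the share of identical reads differed at least 4-fold between the libraries. It was higher in NBH for miR-16a (3.80% against 0.211%), miR-133a (10.9% against 0.791%), miR-10d (tni,fru) (1.42% against 0.114%) and miR-15a (entry A) (4.59% against 0.676%). For miR-93 (1.17% against 11.8%) and miR-24 (entry A) (8.61% against 36.2%) it was lower in NBH. miR-16a had 2761 and 2841 counts in NBH and SC, a log2 ratio of 0.10, but 105 and 6 identical reads, a ratio of 4.31 (interval 3.26 to 5.91). The total share of identical reads was 57.1% in NBH and 59.8% in SC.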
